A study of Mus musculus with 24 samples.

Results

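The Cre-negative control dendritic cells of 2 engineered mouse lines were set against each other, with no Cre recombinase in any of these animals. The 4 control libraries of the transgene line and the 4 of the deletion line were taken by their labels, which makes 8 of the 24 libraries of the series. The transgene-line controls carried the genotype R26-Zeb2Tg/Tg, a Zeb2 transgene in the Rosa26 locus that the labels give as present on both alleles, and the deletion-line controls carried Zeb2fl/fl, a floxed but uncut Zeb2 gene on both alleles. Conventional dendritic cells (cDCs) were sorted from spleens of untreated mice of 6 to 12 weeks, and each line gave 2 libraries of the cDC1 subset and 2 of the cDC2 subset. The strain is given as C57Bl/6 for every sample, without a substrain. In the study, CD11cCRE animals of each line were compared with CRE- littermates of that line. A gene that differs between the 2 sets of controls thus differs where no Cre acts. Such a difference cannot be told apart from one of cohort, sorting or library preparation that went with the line. Libraries of the same number may come from the same mouse or from different mice, which the labels do not say, so the p-values measure only the spread between these libraries.

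The product of Zeb2 is a zinc-finger repressor of transcription, and the series title concerns its repression of Id2 in dendritic cell development. The Rosa26 locus, named Gt(ROSA)26Sor in the count files, is transcribed in most cell types into non-coding RNA and is a common site for inserting transgenes. Inbred mice called C57BL/6 fall into substrains that differ at a small number of known genes, and DNA next to an engineered locus can keep the sequence of the embryonic stem cells in which it was made. The labels used here give neither the embryonic stem cells nor the number of backcrosses, and the part of either in the values below was not tested.

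The count totals of the 8 libraries ran from 21972763 to 26830584, and each detected 13396 to 14219 genes. In the principal components of log2 CPM (counts scaled to a common library size), the first carried 74% of the variance and separated the subsets. The next carried 6.23%, and there the cDC1 transgene-line replicate 1 stood apart from the other libraries, at 56.4 against -22 to 19.4. The third carried 5.54%, and there replicate 2 of the same group stood apart, at -54.4 against -14.8 to 35.5. The subset labels held in both lines. Xcr1, a cDC1 chemokine receptor, stood at 984 to 1267 CPM in cDC1 and at 3.57 to 6.77 CPM in cDC2 libraries, and Sirpa, a cDC2 surface receptor, at 2.15 to 7.82 CPM in cDC1 and at 1272 to 1558 CPM in cDC2. All 8 libraries were male by their counts, with at most 3 counts of Xist and at least 1286 of Ddx3y.

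The engineered genes were read first. Gt(ROSA)26Sor (chr6:113067428-113077244) was nearly absent from the transgene-line controls, at 0.0404 and 0.396 CPM in cDC1 and 0.113 and 0 CPM in cDC2. The deletion-line controls held 19.4 and 15.4 CPM in cDC1 and 5.94 and 8.28 CPM in cDC2, so every library of that line lay above every library of the other. The log2 fold change of the transgene line over the deletion line was -6.55 (SE 0.46, adjusted p = 3.80e-05 by the quasi-likelihood test of edgeR, Benjamini-Hochberg adjusted over all genes). From 9 pooled counts in the transgene line and 877 in the deletion line, the cDC1 level was 87.3-fold lower in the transgene line, with a 95% counting interval of 45.8 to 192. In cDC2, from 3 and 372 pooled counts, it was 130-fold lower, with an interval of 44.1 to 632, and these intervals cover counting error only. The exact permutation test within subsets gave a two-sided p of 0.0556, the smallest that its 36 assignments allow. The neighbouring genes are Thumpd3 and Setd5, with midpoints 0.02 and 0.04 Mb from that of Gt(ROSA)26Sor. Setd5 starts at 113077262, just past the end of Gt(ROSA)26Sor. In the same edgeR test Thumpd3 had a log2 fold change of 0.09 (adjusted p = 0.928) and Setd5 of -0.23 (adjusted p = 0.821). The annotated end of Thumpd3 overlaps Gt(ROSA)26Sor, so reads there cannot be told apart without strand, and the strand setting is not given in the sources used here.

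Zeb2 (chr2:44983512-45117442) did not pass the test between the lines. In cDC1, where it is scarce, the transgene-line controls had 3.27 and 2.38 CPM and the deletion-line controls 0.491 and 2.58 CPM, and the groups overlapped. In cDC2 the transgene-line controls had 104.5 and 104.1 CPM and the deletion-line controls 178 and 133 CPM, which did not overlap, at a mean 1.49-fold higher in the deletion line. The fitted log2 fold change over both subsets was -0.11 (SE 0.33, adjusted p = 0.980 by edgeR), and its sign turned in 6 alternative fits. The difference of averaged log2 levels was 0.36, with an exact two-sided permutation p of 0.944. Id2, the inhibitor of E protein transcription factors, had 1227 and 1322 CPM in transgene-line cDC1 against 1588 and 1318 CPM, and 420.5 and 332 CPM in transgene-line cDC2 against 189.5 and 318 CPM. Its log2 fold change was 0.19 (SE 0.19, adjusted p = 0.906 by edgeR), with an exact two-sided permutation p of 0.5.

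Across the transcriptome few genes differed between the controls. Of 12517 genes tested over both subsets, 23 passed an adjusted p of 0.05 (0.184%). Of these, 9 (0.0719% of the genes tested) were higher and 14 (0.112%) were lower in the transgene line, and 19 differed at least 2-fold. An unadjusted p under 0.05 was reached by 910 genes (7.27%). The 2 libraries of each line did not overlap within cDC1 and within cDC2 in the same direction for 22 of the 23 genes, against 7.37% of all genes tested. The exception was Scn3a, which had no count in any cDC1 control. The genes were called from these same libraries, so this separation largely follows from the calling. The median log2 fold change over all genes was -0.00369. In sorted bulk samples, fewer cells that express a gene and less RNA per cell cannot be told apart. The count moved with single libraries: without the transgene-line cDC1 replicate 2 it was 104, and without the deletion-line cDC2 replicate 2 it was 15. DESeq2's Wald test called 115 genes in the same libraries.

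**Figure D1:**
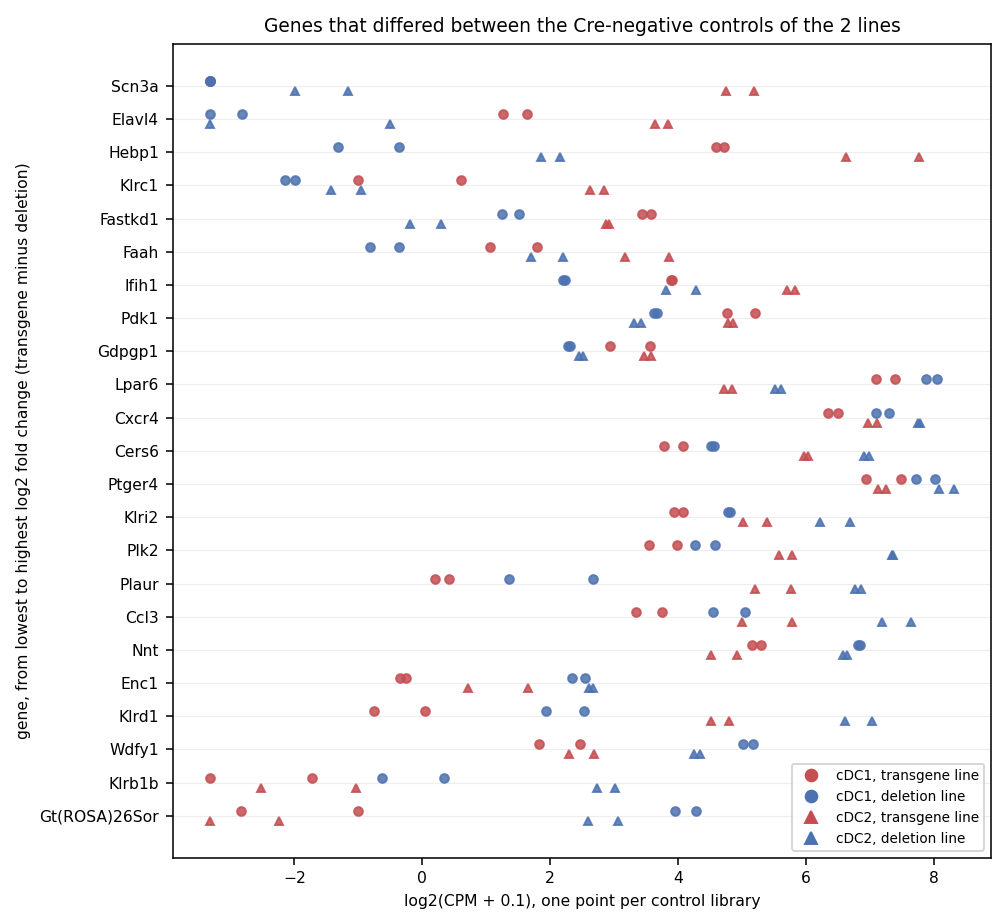
Level of each of the 23 genes that passed the test, as log2(CPM + 0.1) on the x axis, with 1 point per control library, circles for cDC1, triangles for cDC2, red for the transgene line and blue for the deletion line. Genes run on the y axis from the lowest log2 fold change (Gt(ROSA)26Sor, -6.55) to the highest (Scn3a, 6.92), and within a subset the red and blue points are apart for 22 of the 23 genes.

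The genes that differed were not spread evenly over the genome. Chromosomes 2 and 6, which carry Zeb2 and Gt(ROSA)26Sor, held 11 of the 23 called genes (47.8%) and 12.9% of the genes tested. The share called was 0.93% on chromosome 6, 0.513% on chromosome 2 and 0.636% on chromosome 13, where Nnt, Plk2 and Enc1 lie. Within 20 Mb of Gt(ROSA)26Sor 5 of 216 genes were called and 16.7% had an unadjusted p under 0.05, against 7.27% of all genes. Within 20 Mb of Zeb2 1 of 231 genes was called and 8.66% had an unadjusted p under 0.05. None of the 49 genes within 10 Mb of Zeb2 was called, and 4 of them had an unadjusted p under 0.05 by edgeR. A window of 30 Mb, chosen after the data were seen, took in all 11 called genes of the 2 chromosomes, at 11 of 669 genes (1.64%) against 12 of 11848 genes elsewhere or without a position (0.101%). The called genes on chromosome 2 lay 17.6 to 26.8 Mb beyond Zeb2, and those on chromosome 6 other than Gt(ROSA)26Sor lay 15.7 to 22.1 Mb beyond it.

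**Figure D2:**
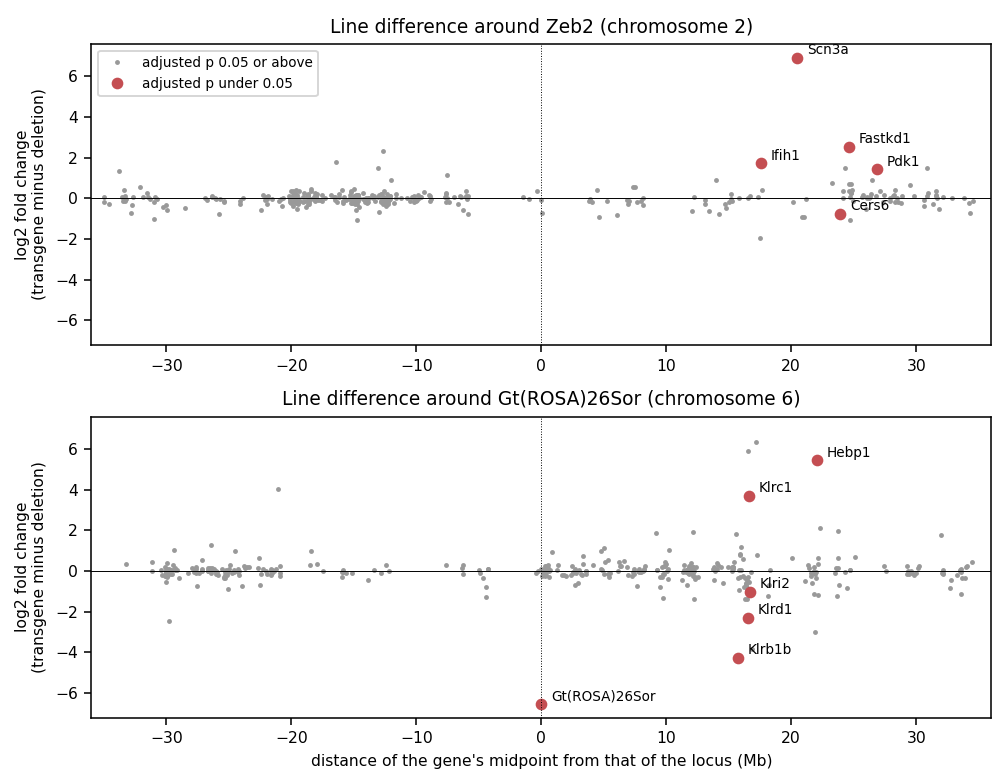
Log2 fold change of the transgene-line over the deletion-line controls (y axis) against the distance in Mb of each tested gene from Zeb2 (upper panel) or Gt(ROSA)26Sor (lower panel). Red points passed an adjusted p of 0.05 and grey points did not; 5 red genes lie 17.6 to 26.8 Mb from Zeb2, and on chromosome 6 Gt(ROSA)26Sor and 5 genes 15.7 to 22.1 Mb from it are red.

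The sequences just before the starts of 2 genes are shown because these had the smallest adjusted p on their chromosomes among called genes with a RefSeq promoter entry. Of the 23 called genes, 16 had such an entry, and the sequences are those of the C57BL/6J reference (GRCm38.p6), not of these mice. They run 5′ to 3′ on the gene's strand for 250 bases up to the start of transcription, with each CG pair in capitals. Hebp1 lies on the minus strand at chr6:135168216-135168465 and has 10 CG pairs.
Hebp1: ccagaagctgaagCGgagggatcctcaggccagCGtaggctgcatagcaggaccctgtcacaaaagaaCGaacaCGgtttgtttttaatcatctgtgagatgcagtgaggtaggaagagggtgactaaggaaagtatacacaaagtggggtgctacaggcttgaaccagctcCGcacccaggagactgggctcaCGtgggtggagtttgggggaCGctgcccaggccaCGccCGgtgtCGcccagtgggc
Ifih1 lies on the minus strand at chr2:62646256-62646505 and has 11 CG pairs.
Ifih1: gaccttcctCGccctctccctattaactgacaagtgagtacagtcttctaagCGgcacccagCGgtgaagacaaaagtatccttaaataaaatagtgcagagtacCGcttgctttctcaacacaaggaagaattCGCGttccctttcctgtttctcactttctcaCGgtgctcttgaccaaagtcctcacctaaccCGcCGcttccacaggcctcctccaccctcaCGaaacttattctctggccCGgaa
The RefSeq promoters set beside these were those of all chromosomes but 18, and their median was 6 CG pairs. Neither window held TATAAA, which 12.4% of those promoters hold on either strand over the same length. Nor did they hold CACCTG, an E-box of the type that ZEB proteins bind, which 17.2% hold.

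Hebp1, which encodes a heme-binding protein, had the smallest adjusted p. The transgene-line controls had 26.4 and 24.1 CPM in cDC1 and 217 and 98.9 CPM in cDC2. The deletion-line controls had 0.302 and 0.676 CPM in cDC1 and 3.54 and 4.33 CPM in cDC2. Within each subset the transgene line was far above the deletion line, by 51.5-fold in cDC1 and 40.2-fold in cDC2, with a log2 fold change of 5.43 (SE 0.28, adjusted p = 3.69e-06 by edgeR). In the deletion line Hebp1 still followed the subsets, with cDC2 above cDC1.

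On chromosome 2, 4 called genes were higher and 1 was lower in the transgene line. Ifih1, whose product MDA5 senses viral double-stranded RNA in the cytosol, had 14.9 and 14.7 CPM in transgene-line cDC1 against 4.61 and 4.48 CPM. In cDC2 it had 56.8 and 51.7 CPM against 13.9 and 19.3 CPM. The 2 subsets gave nearly the same size, 3.26-fold and 3.27-fold higher, with a log2 fold change of 1.71 (SE 0.13, adjusted p = 8.52e-05 by edgeR). Of 20 other genes of an interferon response list none was called, and their median log2 fold change was 0.03. Among these 20 genes 3 had an unadjusted p under 0.05, against 7.27% of all genes. Fastkd1, a mitochondrial RNA-binding protein, had 10.8, 11.8, 7.47 and 7.19 CPM in the transgene line (cDC1 then cDC2) and 2.76, 2.28, 1.13 and 0.774 CPM in the deletion line. All 4 transgene-line values were above all 4 of the deletion line, with a log2 fold change of 2.51 (SE 0.24, adjusted p = 3.44e-04 by edgeR).

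Pdk1, a kinase that restrains pyruvate dehydrogenase, had 36.7, 26.9, 28.9 and 27.5 CPM in the transgene line and 12.6, 12.2, 9.78 and 10.6 CPM in the deletion line. The lowest transgene-line library was more than 2-fold above the highest of the deletion line, with a log2 fold change of 1.41 (SE 0.13, adjusted p = 3.36e-04 by edgeR). It was the only called gene of 14 in a glycolysis and hypoxia list, whose median was -0.01. Scn3a, a voltage-gated sodium channel subunit, was listed at 0 counts in all 4 cDC1 controls. In cDC2 it had 36.1 and 26.8 CPM in the transgene line and 0.15 and 0.348 CPM in the deletion line. Its log2 fold change was 6.92 (adjusted p = 1.81e-04 by edgeR), and DESeq2 gave an adjusted p of 0.114; it was named after its values were seen. Cers6, a ceramide synthase, was lower in the transgene line, with 13.7 and 16.7 against 23.6 and 22.8 CPM in cDC1. In cDC2 it had 65.0 and 62.4 against 126 and 119.6 CPM, with a log2 fold change of -0.79 (SE 0.11, adjusted p = 0.0102 by edgeR), and it was called in 5 of the 8 fits that left out a library.

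The other called genes of chromosome 6 encode lectin-like receptors of the natural killer gene complex, a cluster of related genes that NK cells and some dendritic cells use. Klrd1, whose product CD94 pairs with NKG2 chains, had 0.93 and 0.495 CPM in transgene-line cDC1 against 3.70 and 5.70 CPM. In cDC2 it had 27.8 and 22.8 against 97.0 and 131 CPM. The deletion line was higher in both subsets, with a log2 fold change of -2.31 (SE 0.20, adjusted p = 1.81e-04 by edgeR). Klrc1, which encodes the CD94 partner NKG2A, went the other way, with 1.41 and 0.396 against 0.151 and 0.127 CPM in cDC1 and 7.09 and 6.09 against 0.414 and 0.271 CPM in cDC2. Its log2 fold change was 3.69 (SE 0.51, adjusted p = 0.0107 by edgeR). Klrb1b, an inhibitory receptor, had 0.202, 0, 0.0751 and 0.39 CPM in the transgene line and 1.17, 0.549, 7.94 and 6.54 CPM in the deletion line, a log2 fold change of -4.29 (SE 0.66, adjusted p = 0.0251 by edgeR). Klri2, also of the receptor family, had 15.3, 16.8, 32.3 and 41.9 CPM against 27.5, 28.0, 74.4 and 103 CPM (log2 fold change -1.03, SE 0.15, adjusted p = 0.0126 by edgeR). In the 8 fits that each left out 1 library, Klrd1 was called in 8, Klri2 in 7, Klrc1 in 4 (adjusted p of edgeR up to 0.0828) and Klrb1b in 3 (up to 0.122), with no change of sign.

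From 15 to 19 Mb beyond Gt(ROSA)26Sor, 20 Klr and Clec2 genes were tested. Of these 4 were called, and 13 (65%) had an unadjusted p under 0.05, 5 of them higher and 8 lower in the transgene line. The 22 other tested genes of the interval had 0 calls by edgeR, and 9 (40.9%) had an unadjusted p under 0.05. Both shares were above the 7.27% of all genes. The interval was not among the planned windows, however, and was set where the called Klr genes lie. The share of the Klr and Clec2 genes is thus no support apart from those calls. Klr genes resemble each other in sequence, so how reads were divided among them is uncertain. The NK-defining gene Ncr1 was at 0 to 0.85 CPM, with 5 of the 8 libraries at 0, and of 9 tested genes of an NK cell list 6 had a positive log2 fold change and 1, Klrd1, was called. Besides Klrd1, which was lower, Gzma, Ncr1 and Nkg7 had an unadjusted p under 0.05 and were higher, with log2 fold changes of 2.27, 6.63 and 2.74 (adjusted p = 0.600, 0.314 and 0.330 by edgeR), and DESeq2 called 3 genes of the list. Without transgene-line cDC1 replicate 2, 7 genes of the list had an unadjusted p under 0.05, 6 of them higher. The summed level of the NK cell list was 15.1 to 40.1 CPM in cDC1 and 153 to 300.5 CPM in cDC2. Over the 8 libraries Ccl5 ran from 10 to 166 CPM and Klrd1 from 0.495 to 131 CPM. No other gene of the list exceeded 3.48 CPM (Nkg7), so the sum is mostly that of Ccl5 and Klrd1.

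**Figure D3:**
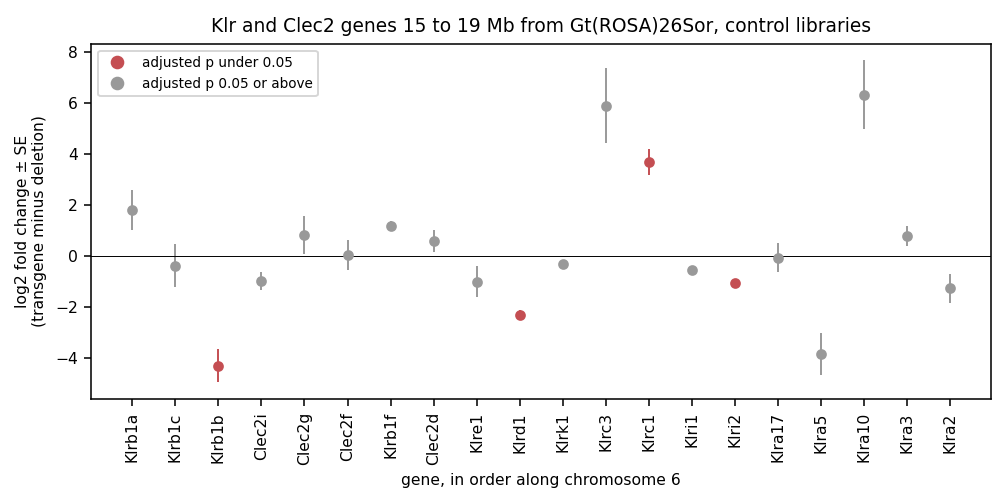
Log2 fold change of the transgene-line over the deletion-line controls, with its SE as bars, for the 20 tested Klr and Clec2 genes in their order along chromosome 6. Red points passed an adjusted p of 0.05; Klrc1 is up at 3.69, Klri2, Klrd1 and Klrb1b are down at -1.03, -2.31 and -4.29, and genes of both signs are interleaved.

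Away from both loci, Nnt and Wdfy1 kept their call in every alternative fit; they were the called members of 5 tested genes on a list known to differ among C57BL/6 substrains. Nnt (chr13:119335527-119409257), the mitochondrial nicotinamide nucleotide transhydrogenase of which the C57BL/6J substrain carries a deletion, had 35.5, 39.2, 30.3 and 22.8 CPM in the transgene line. The deletion line had 115, 113, 99.9 and 95 CPM, more than 2-fold above in every library. Its log2 fold change between the lines was -1.74 (SE 0.11, adjusted p = 2.59e-05 by edgeR), and reads were still counted in the transgene line. Wdfy1, an endosomal adaptor of Toll-like receptors, had 3.44, 5.45, 4.80 and 6.30 CPM in the transgene line against 32.1, 36.1, 18.9 and 20.2 CPM, with a log2 fold change of -2.37 (SE 0.24, adjusted p = 7.53e-04 by edgeR). It was 7.68-fold lower in cDC1 and 3.52-fold lower in cDC2, and the difference between subsets did not pass the test (adjusted p = 0.531 by edgeR). Of 10 tested genes on a list of haplotype differences among strains, 0 were called by edgeR and by DESeq2. Among them 1, Klra2, had an unadjusted p under 0.05, against 7.27% of all genes. In cDC2 alone edgeR called 1, Slc11a1, lower in the transgene line (adjusted p = 0.0324). Substrain was not tested, since the labels give no substrain for either line.

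Elavl4 on chromosome 4, a neuronal RNA-binding protein, was nearly absent from the deletion line. It had 2.30 and 3.02 CPM in transgene-line cDC1 against 0 and 0.0422 CPM. In cDC2 it had 14.3 and 12.4 against 0.602 and 0 CPM, with a log2 fold change of 5.65 (SE 0.60, adjusted p = 0.00108 by edgeR). From 118 and 1 pooled counts, the cDC1 ratio had a counting interval of 23.2 to 5244. In the fit over all 24 libraries its adjusted p was 0.203. Faah on the same chromosome, which breaks down fatty acid amides, had 3.35, 1.98, 14.4 and 8.92 CPM in the transgene line and 0.68, 0.465, 3.16 and 4.49 CPM in the deletion line (log2 fold change 1.85, SE 0.29, adjusted p = 0.0261 by edgeR). With 1 library left out, Faah was called in 3 of 8 fits, at an adjusted p of up to 0.174 by edgeR. Gdpgp1 on chromosome 7, a GDP-glucose phosphorylase, had 11.7, 7.58, 11.8 and 11 CPM against 4.84, 4.77, 5.6 and 5.34 CPM. It passed narrowly (log2 fold change 1.03, adjusted p = 0.0498 by edgeR) and was called in 1 of the 8 fits that left out a library.

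The remaining called genes were lower in the transgene line. Ccl3, a chemokine of activated myeloid cells, had 10.1 and 13.3 against 33.0 and 23.2 CPM in cDC1 and 32.0 and 54.9 against 145 and 199 CPM in cDC2. Its log2 fold change was -1.65 (SE 0.22, adjusted p = 0.00704 by edgeR), and its annotated span overlaps that of Ccl4. Cxcr4, the receptor of the homing chemokine Cxcl12, had 81.1 and 89.9 against 157 and 137 CPM in cDC1 and 125 and 138 against 216 and 220.1 CPM in cDC2 (log2 fold change -0.75, SE 0.09, adjusted p = 0.00243 by edgeR). Lpar6, a lysophosphatidic acid receptor, fell by 0.75 on the log2 scale (SE 0.10, adjusted p = 0.00577 by edgeR), from 263, 235, 45.6 and 48.6 CPM in the deletion line to 137, 167, 26.2 and 28.6 CPM. For each of these 3 genes the libraries of the 2 lines did not overlap in either subset.

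Ptger4, a prostaglandin E2 receptor, was 1.57-fold lower in cDC1 and 2.02-fold lower in cDC2 of the transgene line (log2 fold change -0.83, adjusted p = 0.0378 by edgeR). Plaur, the urokinase receptor, was 3.82-fold and 2.48-fold lower (log2 fold change -1.50, adjusted p = 0.0392 by edgeR). Plk2, a polo-like kinase, was 1.56-fold and 3.19-fold lower (log2 fold change -1.19, adjusted p = 0.0371 by edgeR). Enc1, an actin-binding protein named after its values were seen, was 7.50-fold and 2.68-fold lower (log2 fold change -2.07, adjusted p = 0.0392 by edgeR). With each of the 8 libraries left out in turn, Ptger4, Plk2 and Enc1 were called in 2 fits and Plaur in 4, so their calls depended on which libraries entered. Their log2 fold changes stayed negative over the 16 alternative settings, at -0.98 to -0.74 for Ptger4, -1.38 to -1.03 for Plk2, -2.50 to -1.86 for Enc1 and -1.74 to -1.26 for Plaur.

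The early response genes, which are transcribed within minutes of stimulation, and of handling of cells, had values of the same sign without passing the adjusted test. Of 18 tested, 18 had a negative log2 fold change in the transgene line and 0 were called by edgeR over both subsets, while in cDC2 alone 1, Dusp2, was called lower (adjusted p = 0.0382). An unadjusted p under 0.05 was reached by 14, against 7.27% of all genes, and DESeq2 called 4. Their median was -0.44, against -0.00369 over all genes. Egr1 had 541 and 743 against 955 and 1246 CPM in cDC1 and 765 and 1290 against 1959 and 1926 CPM in cDC2 (log2 fold change -0.85, SE 0.16, adjusted p = 0.0834 by edgeR). In each subset both transgene-line libraries were below both deletion-line libraries. Egr2 had 197 and 385 against 551 and 471 CPM in cDC1 and 158 and 428 against 673 and 1029 CPM in cDC2 (log2 fold change -1.18, adjusted p = 0.263 by edgeR). Of 14 genes of NF-kappaB feedback, Ccl3 was called, 7 had an unadjusted p under 0.05, all lower, and the median was -0.49.

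**Figure D4:**
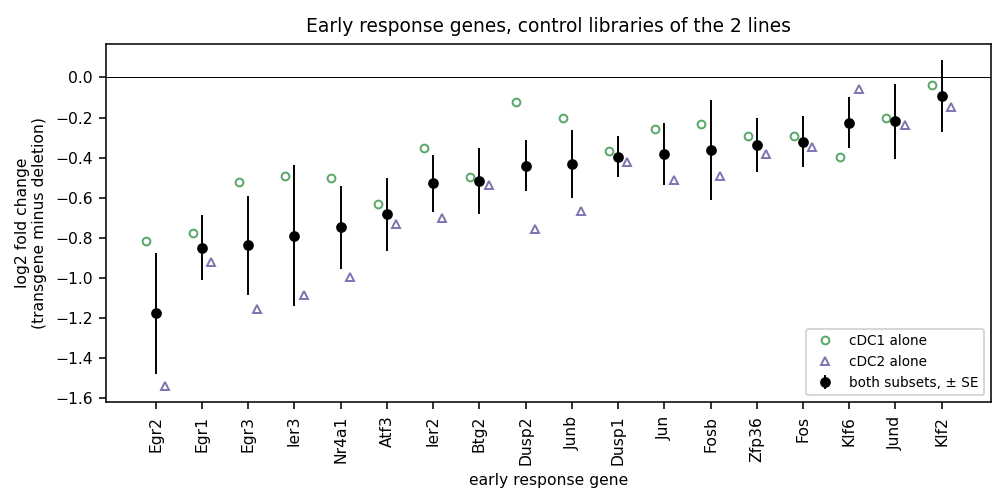
Log2 fold change of the transgene-line over the deletion-line controls for the 18 early response genes, with the SE as bars for both subsets together and open symbols for each subset alone. All 18 values for both subsets together lie below 0, from -1.18 for Egr2 to -0.09 for Klf2. None of them passed an adjusted p of 0.05 by edgeR, while Dusp2 passed it in cDC2 alone.

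Markers of other cells were read in the same libraries, and their direction depended on the list. The share of all genes at an unadjusted p under 0.05 was 7.27%. Of 9 tested T cell genes 8 had a positive log2 fold change and 6 an unadjusted p under 0.05, all higher in the transgene line. Their summed level in cDC1 was 26.1 and 6.69 CPM in the transgene line against 9.26 and 9.16 CPM, so the groups overlapped. The high value was that of replicate 1, which stood apart in the second principal component, as replicate 2 did in the third. In cDC2 it was 36.9 and 36.5 against 24.6 and 29.1 CPM. Cd3e was at 0.113 to 4.00 CPM and Cd28 at 0 in 2 libraries. All 7 tested erythroid genes had a positive value and 6 an unadjusted p under 0.05, with a summed level of 15.7 and 8.12 against 5.03 and 5.28 CPM in cDC1 and of 29.2 and 33.8 against 15.6 and 17.8 CPM in cDC2. Hba-a1, Hba-a2 and Hbb-bt were at 0 in all 8 libraries. Without transgene-line cDC1 replicate 1, the genes at an unadjusted p under 0.05 went from 6 to 3 in the T cell list and from 6 to 3 in the erythroid list, all of them still higher.

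Of 8 neutrophil genes 3 had an unadjusted p under 0.05, all higher; without transgene-line cDC2 replicate 2 it was 1. Over all genes 7.27% had an unadjusted p under 0.05, the share to set beside the counts of each list here. The neutrophil sums overlapped between the lines in both subsets. Of 7 plasma cell genes 4 had a positive and 3 a negative value, and 5 had an unadjusted p under 0.05. Of these Jchain, Mzb1 and Sdc1 were higher, and the transcription factors Prdm1 (log2 fold change -1.23) and Irf4 (-0.63) were lower. Jchain had 57.8, 19.1, 42.6 and 260.5 CPM in the transgene line and 10.4, 11.3, 2.93 and 7.74 CPM in the deletion line (log2 fold change 3.29, adjusted p = 0.157 by edgeR). The monocyte list had more negative than positive values, at 9 and 5 of 14, with 2 higher and 3 lower at an unadjusted p under 0.05. These were Cd300e, F13a1, Ly6c2, Lyz2 and Nr4a1, of which Ly6c2 was higher and Lyz2 and Nr4a1 were lower. The summed level was 1768 to 9515 CPM. Nr4a1, also counted among the early response genes, ran from 1020 to 5510 CPM and Lyz2 from 176 to 2410 CPM. No other gene of the list exceeded 989 CPM (Csf1r), so the sum is largely that of Nr4a1 and Lyz2. Lyz2, a lysozyme of myeloid cells, had 237 and 176 against 302 and 357 CPM in cDC1 and 1559 and 1112 against 2413 and 1944 CPM in cDC2 (log2 fold change -0.69, adjusted p = 0.0954 by edgeR). The red pulp macrophage list had 10 negative values of 15 and the B cell list 7 of 9. Over both subsets none of the genes of these 7 lists was called by edgeR (DESeq2 called 1 T cell, 2 erythroid, 0 neutrophil, 2 plasma cell, 1 monocyte, 0 red pulp macrophage and 0 B cell genes). In cDC2 alone edgeR called Jchain and the erythroid anion exchanger Slc4a1, both higher (adjusted p = 0.0477 for each). The part of these cells in the differences above was not tested.

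Over both subsets the identity genes of the cells themselves did not pass the test. None of the 19 cDC1 or 19 cDC2 identity genes was called by edgeR and 2 of each list were called by DESeq2, while 7 and 6 had an unadjusted p under 0.05. The cDC2 list had a median of -0.25 and the cDC1 list of 0.15. Some of the genes at an unadjusted p under 0.05 lie near Gt(ROSA)26Sor. Of the cDC2 list these are Clec12a, Clec7a and Clec4a4, at 16.3, 16.4 and 9.94 Mb. Of the cDC1 list they are Clec9a at 16.3 Mb and Cd207 at -29.4 Mb. The others, Cd300a, Irf4, Notch2, Cadm1, Cd36, Cd8a, Itgae and Snx22, lie outside the 30 Mb windows of both loci. The part of position in these counts was not tested. In cDC2 alone, where 0.24% of all genes were called, edgeR called 4 of the 19 cDC1 identity genes and 0 of the cDC2 identity genes, and in cDC1 alone 0 of either. Cadm1, an adhesion molecule, had 13.5 and 14.6 against 27.8 and 31.0 CPM in cDC2 (adjusted p = 0.00528), and the dead-cell receptor Clec9a 5.37 and 6.98 against 17.8 and 12.0 CPM (adjusted p = 0.0330). The scavenger receptor Cd36 had 7.81 and 6.76 against 17.6 and 15.3 CPM (adjusted p = 0.0119), also lower in the transgene line. Cd8a, a surface marker of cDC1, was higher, with 18.96 and 41.8 against 7.56 and 6.54 CPM (adjusted p = 0.0165). These cDC2 levels were low beside those in cDC1, where the 4 genes stood between 244 and 949 CPM, and the difference between the subsets did not pass the edgeR test for any of them (adjusted p of 0.276 to 0.441). Irf4, a transcription factor of cDC2, had 4.04 and 5.45 against 7.79 and 7.69 CPM in cDC1 and 159 and 139.8 against 179.9 and 265 CPM in cDC2 (log2 fold change -0.63, adjusted p = 0.15 by edgeR). No genes of MHC class II (12 tested) or the cell cycle (20 tested) were called by edgeR or DESeq2, and 0 of either had an unadjusted p under 0.05. Of 15 cholesterol synthesis genes 14 had a positive value and 6 an unadjusted p under 0.05, with a median of 0.26 and no call by edgeR or DESeq2. The circadian clock list had 3 of 15 genes, all lower, and the glucocorticoid target list 5 of 12 at an unadjusted p under 0.05, and neither had a call by edgeR (2 and 1 by DESeq2). Against 7.27% of all genes, an unadjusted p under 0.05 was reached by 2 of 14 plasmacytoid DC, 3 of 20 lineage transcription factor and 2 of 16 interferon-gamma and class I genes. It was reached by 3 of 16 maturation, 2 of 12 heat shock and 3 of 15 TGF-beta genes. None of these 6 lists had a call by edgeR, and DESeq2 called 0, 2, 0, 1, 0 and 0. Lists of red pulp macrophage, B cell and platelet genes had 0 genes at an unadjusted p under 0.05 and no call by edgeR or DESeq2.

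Taken alone, cDC1 gave 11 called genes (0.0879%) and cDC2 gave 30 (0.24%). The test of the difference between the subsets called 0 genes (0%) by edgeR, with 924 genes at an unadjusted p under 0.05 and 44 called by DESeq2, so no gene was shown by edgeR to differ more in one subset. Without transgene-line cDC1 replicate 1 that test called 8 genes, cDC1 alone 30 and cDC2 alone 74. Without transgene-line cDC1 replicate 2, cDC1 alone gave 33 and cDC2 alone 72. Other libraries left out moved the cDC1 count to 6 at the lowest (deletion-line cDC1 replicate 1) and the cDC2 count to 10 (transgene-line cDC2 replicate 2), and it was 13 without deletion-line cDC2 replicate 2.

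The same contrast was read in the 16 Cre-positive libraries, which share none with the controls but in which Zeb2 differs between the lines by design. There 3006 of 12417 genes were called (24.2%), and 7.34% did not overlap in both subsets in the same direction. Of the 23 genes, 15 were called in the same direction, 2 (Ccl3 and Plk2) in the opposite direction and 6 not called. For 9 of them the lines did not overlap in both subsets in the same direction. In transgene-line Cre-positive cDC1, Hebp1 had 57.5, 69.9, 32.8 and 36.4 CPM, against 0.189 to 0.688 CPM in the deletion line. Gt(ROSA)26Sor stood at 0 to 0.5 CPM in all 8 transgene-line Cre-positive libraries and at 7.42 to 16.9 CPM in the deletion line. Nnt stood at 32.0 to 36.2 CPM and at 85.2 to 127 CPM, and Ifih1 was higher in the transgene line in both subsets, at 24.0 to 31.7 CPM against 3.89 to 6.00 CPM in cDC1. Ccl3, lower in the transgene-line controls, was higher in the transgene line there, at 31.4 to 51.0 CPM against 19.9 to 30.6 CPM in cDC1. The 18 early response genes were again all negative, with 6 called lower and a median of -0.39, and all 20 cell cycle genes were called higher, of which 0 were called in the controls.

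**Figure D5:**
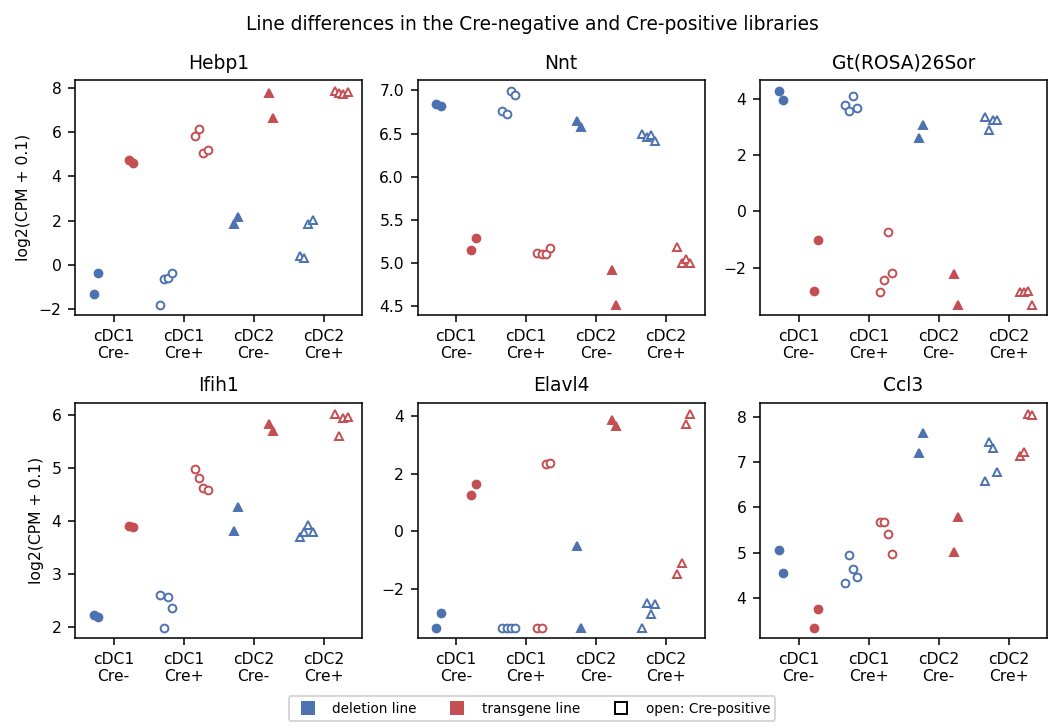
Level of 6 genes as log2(CPM + 0.1) in all 24 libraries, with 1 point per library, filled for Cre-negative and open for Cre-positive, red for the transgene line and blue for the deletion line. Hebp1, Nnt, Gt(ROSA)26Sor and Ifih1 keep the red and blue points apart in all 4 columns, Ccl3 turns its direction in Cre-positive cDC1, and Elavl4 is split among the red open points.

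Elavl4 differed within the transgene line. In Cre-positive cDC1 it had 0, 0, 4.88 and 5.11 CPM in replicates 1 to 4, and in Cre-positive cDC2 0.262, 0.374, 13.1 and 16.7 CPM, so the same numbers were low and high in both subsets. All 4 transgene-line controls were on the high side. Gdpgp1 had 11.3, 8.95, 5.96 and 6.42 CPM in those cDC1 and 8.08, 10.7, 3.51 and 3.92 CPM in those cDC2 libraries, with the same numbers high and low in both subsets. In the deletion line Klrc1 was at 4.64 to 6.85 CPM in Cre-positive cDC2 against 0.271 and 0.414 CPM in its controls, and Faah at 10.7 to 14.2 CPM against 3.16 and 4.49 CPM. These 2 genes were not called between the lines in the Cre-positive libraries (adjusted p = 0.844 and 0.535 by edgeR).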

How the data were processed

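RNA of sorted splenic cDC1 and cDC2 was measured as raw counts per gene symbol. In each sample, per the labels' protocols, 4 ng of total RNA was amplified (SMART-Seq v4), library PCR ran 15 cycles, and 2 flow cells gave reads of 75 bp. Per the submitters' processing notes the authors used FastQC 0.11.4, Trimmomatic 0.35, TopHat2 2.1.0, SAMtools 0.1.18 and mm10. Which counting program, annotation and strand setting were used is not given in the sources used here. The deposited counts are whole and unscaled, for 24421 symbols, and 5 lines for reads in no gene were left out (no feature 11.4 to 15.2%, ambiguous 0.97 to 1.08% of reads).

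The tools were edgeR 4.0.16, DESeq2 1.42.0 and limma 3.58.1 under R 4.3.3. Low counts were filtered by filterByExpr (minimum count 10, total 15) on the 8 controls and scaled by TMM (0.919 to 1.07). The model held subset and line, tested by the quasi-likelihood method of edgeR, with p-values adjusted by Benjamini-Hochberg over all genes and a threshold of 0.05. Each subset and the interaction used group means, and the Cre-positive libraries a separate fit. The filter admits genes high in 1 group only. Floors are 3 counts, or 0.106 to 0.149 CPM, and counting intervals are at 95%. Positions are those of RefSeq GRCm38.p6, the assembly of mm10, and 99.7% of genes were placed, 546 by a synonym. Distances between genes run from midpoint to midpoint. Replicates differed beyond sampling noise. The pipeline was tested on simulated counts.

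Genes were named by rule: Zeb2, Gt(ROSA)26Sor and Id2, up to 12 called genes in each direction without overlap in either subset and averaging log2 CPM 2 or more, called members of lists, and called genes near the loci or on chromosomes rich in calls. The genes, 28 lists and windows were chosen with earlier results of these data known. Alternatives were DESeq2 and its size factors, other filters, a 2-fold minimum, a fit over all 24 libraries, replicate number as a block, correlated or averaged subsets, and leaving out each library in turn.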

Additional observations from a re-analysis of the deposited data

Results flagged for a closer look

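In groups of 4 Cre-positive libraries, 95 groups of the genes named here were checked for a library far from the rest, and chance flags about 1 in 20. There were 5 such libraries. Cers6 was high in deletion-line cDC1 replicate 2, at 35.5 CPM against 24.3 to 25.0 CPM in the other 3. Klrb1b was high in transgene-line cDC1 replicate 3, at 2.23 CPM against 0.146 to 0.432 CPM. Klrd1 was high in transgene-line cDC2 replicate 3, at 69.7 CPM against 14.9 to 16.0 CPM. For both genes replicate 3 was also the highest in the other subset, without being flagged. Klrb1b had 2.77 CPM there in cDC2, against 0.261 to 0.823 CPM. Klrd1 had 3.73 CPM there in cDC1, against 0.759 to 1.36 CPM. Both genes lie in the natural killer gene complex, so these flags may not be separate events. Of the other called genes of that complex, Klri2 was highest in replicate 3 of cDC2 alone and Klrc1 in replicate 3 of neither subset. Lpar6 was high in deletion-line cDC1 replicate 3, at 249 CPM against 168.6 to 179.9 CPM. Wdfy1 was low in deletion-line cDC2 replicate 4, at 19.2 CPM against 22.1 to 22.5 CPM. The control groups hold 2 libraries each and were too small for this check.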

How the results depend on the processing

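All 23 called genes kept their direction in every alternative fit, 13 kept their call when each of the 8 libraries was left out, and 9 kept it in every alternative (Ccl3, Fastkd1, Gt(ROSA)26Sor, Hebp1, Ifih1, Klrd1, Nnt, Pdk1 and Wdfy1). In the order both subsets, cDC1, cDC2, interaction, genes within 20 Mb of a locus and members of lists, the counts of 23, 11, 30, 0, 6 and 5 became 115, 77, 115, 44, 16 and 24 with DESeq2 and 274, 272, 322, 167, 27 and 67 without a low-count filter. The fit over all 24 libraries gave 47, 17, 18, 0, 12 and 11. Correlated subsets (limma voom, a replicate block within line) gave 66 for both subsets, 13 near the loci and 11 in lists, and averaged subsets 8 in lists. Leaving out libraries gave 15 to 104, 6 to 33, 10 to 74, 0 to 8, 3 to 12 and 5 to 21. The 9 higher and 14 lower became 38 and 77 with DESeq2, 86 and 188 without a filter, 19 and 47 with correlated subsets and 7 and 17 with averaged subsets. In the Cre-positive libraries 594 of 3006 genes were at least 2-fold apart. Same-numbered control libraries did not deviate together across genes (r of -0.0924 to 0.0312), and a replicate block gave 30 genes for both subsets (9 higher, 21 lower), 12 for cDC1, 34 for cDC2, 0 for the interaction, 7 near the loci and 9 in lists. Early response genes at an unadjusted p under 0.05 went from 14 to 10 to 13 with a library left out, a check chosen, like that of the T cell, erythroid and neutrophil lists, after seeing the data. The log2 fold change of Zeb2 turned from -0.11 to 0.13 with DESeq2, 0.18 over all 24 libraries, 0.36 with averaged subsets, and 0.06, 0.07 and 0.14 (range of all such fits -0.39 to 0.14) without transgene-line cDC2 replicate 1, replicate 2 and deletion-line cDC2 replicate 1. That of Id2 turned from 0.19 to -0.018 without the last (range -0.018 to 0.32). The causes were not tested. With 2 libraries a group, small differences in scarce genes were not detectable.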

Other observations

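Just short of the threshold lay Camk2b (log2 fold change -1.64, adjusted p = 0.0517 by edgeR), a calmodulin-dependent kinase subunit, and Slpi (1.75, adjusted p = 0.0554 by edgeR), a secreted protease inhibitor on chromosome 2. Klrb1f (1.19) and the MHC class I-like H2-K2 (-2.03) had the same adjusted p of 0.0554 by edgeR. Of the 10 genes next below the threshold, Klrb1f, Clec7a (-0.73), Smim10l1 (0.65) and Etv6 (-0.49) lie on chromosome 6. The genes with the smallest p for a difference between the subsets in the line effect were C1qc, Slc11a1, Hhex, Pmaip1, Tbxas1 and Kntc1, each with an adjusted p of 0.276 by edgeR. C1qc, a complement subunit, had a log2 fold change of 1.11 in cDC1 and -0.90 in cDC2, and Hhex, a homeobox factor, of -0.54 and 0.82.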
